A study of Drosophila melanogaster with 10 samples.

Results

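Wing imaginal discs of Drosophila melanogaster were compared between 6 h and 15 h of the third larval instar, counted from its opening molt (L2/L3). The wing disc is the larval epithelial sac that forms the adult wing, hinge and notum. The comparison used 4 of the 10 libraries deposited, 15 h A and B against 6 h A and B, and covered the 10453 of 13041 genes whose signal was at least 10 in at least 2 of the 10 libraries. Both times shared the genotype yw (yellow and white marker mutations) and the tissue, and differed in the labels only in time; the other libraries, 2 each, were from 25, 35 and 48 h, the last from wandering larvae. The labels give no larval sex, no diet and no number of discs per library. They give the molecule as polyA RNA, whereas the protocol beside it describes stranded total RNA libraries from which ribosomal RNA was removed. Signal is the deposited unit, the read count of a gene divided by one scaling factor for its library.

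The labels do not say that A and B came from separate larval collections, so p-values measure only the spread between these libraries, which may be technical. Because whole discs were ground up, fewer cells of a type and less RNA per cell cannot be told apart in any value below.

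During the third instar the disc cells divide many times while secreted signals and transcription factors divide the epithelium into compartments, pouch, hinge and notum. Proneural genes then mark the clusters from which sensory organs arise. Growth is fed by ribosome production in the nucleolus, and the steroid hormone ecdysone times the larval stages through a cascade of transcription factors.

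The 4 libraries held 30993706 and 22198068 reads at 6 h and 28040176 and 24290363 at 15 h, and 1 read was worth a signal of 0.856, 1.33, 1.28 and 1.07 in that order. The 15 h libraries were less alike than any other pair. Over genes, the log2 difference of A from B had an SD of 1.66 for 15 h, with 0.537 to 0.872 for every other pair. Digestive enzyme genes of the gut (65 genes) took 4.08% of the reads in 15 h A and 0.172% in 15 h B, against 1.42% and 0.884% at 6 h and at most 0.138% later. The 11 listed genes that define the disc epithelium, among them vg, nub, ap and wg, took 0.0726% in 15 h A and 0.154% in 15 h B, against 0.102% and 0.0926% at 6 h, and each of them was lower in 15 h A than in 15 h B. None of the 11 was without reads in 15 h B, nor was any of the 5 adult muscle precursor genes. Of the 65 digestive enzyme genes, 5 were at 0 reads there, CG30025, LysP and Mal-A7 among them. Over the whole table, 11434 of 13041 genes had a read in 15 h B, so being at 0 reads was not particular to the digestive list.

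**Figure D1:**
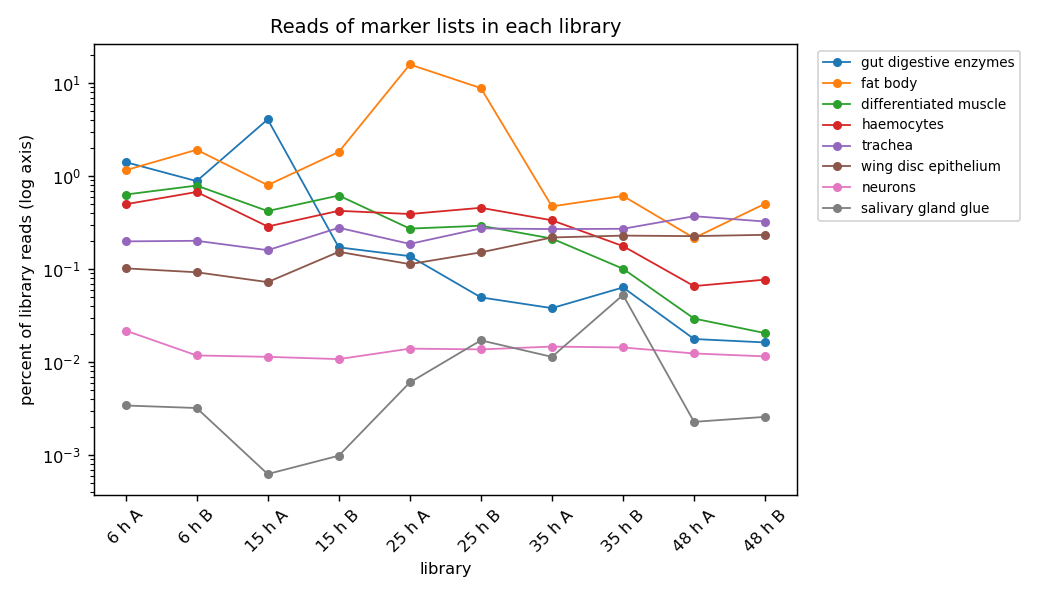
Percent of each library's reads (vertical log axis) taken by 8 marker lists in the 10 libraries, one line per list. Gut digestive enzymes reach 4.08% in 15 h A and 0.172% in 15 h B, and fat body genes 15.9% and 8.84% at 25 h.

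The gap between the 15 h libraries had a direction. Relative to both 6 h libraries, 2302 genes (22% of those tested) lay above in 15 h A and below in 15 h B, and 1131 (10.8%) did the reverse. With at least 2-fold on both sides and a signal of at least 100 in the higher 15 h library, the counts were 525 and 2. The 2 were Yp3, which encodes a yolk protein, and CG4716; they are named because they are so few. The trypsin gene betaTry had 35738 and 12679 at 6 h, 165609 in 15 h A and 2363 in 15 h B. The results below rest on genes that moved the same way in both 15 h libraries.

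Both 15 h libraries lay above both 6 h libraries for 2291 genes (21.9% of those tested) and below both for 2345 (22.4%). With every one of the 4 differences at least 2-fold and the 15 h libraries within 2-fold of each other, 41 genes (0.392%) were higher and 291 (2.78%) lower. In limma's moderated test, fitted over all 10 libraries with Benjamini-Hochberg adjustment over the 10453 genes and a threshold of 0.05, 441 genes passed (4.22%), 138 of them higher (1.32%) and 303 lower (2.9%). Of these, 44 were higher and 149 lower by at least 2-fold. In all 441 the 15 h and 6 h libraries did not overlap, which a selection on these same libraries nearly ensures. The median log2 change over all genes tested was 0.048.

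These calls sit close to the threshold, with a lowest adjusted p of 0.0194, and they depend on which libraries estimate the spread. No gene passed when any one library of 6, 35 or 48 h was left out, when the 4 libraries were fitted alone (limma, lowest adjusted p 0.442), or in edgeR's quasi-likelihood test (lowest adjusted p 0.0572), although 2392 genes had an unadjusted p under 0.05 in limma over all libraries and 2159 in edgeR. Without 25 h A, 24 higher and 95 lower genes passed, and without 25 h B 24 and 97. Without 15 h A, 1970 genes were higher (18.8%) and 1848 lower (17.7%), and without 15 h B 1975 (18.9%) and 1005 (9.61%), because each of these fits leaves the gap between the 15 h libraries out of the spread. DESeq2 called 666 higher and 715 lower. No gene of the 441 changed its direction in any of these fits, and each of them passed with either 15 h library alone, as did 399 genes higher (3.82%) and 509 lower (4.87%) in all. The words rose and fell below stand for passing the limma test over all 10 libraries, and all of them carry these limits.

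**Figure D2:**
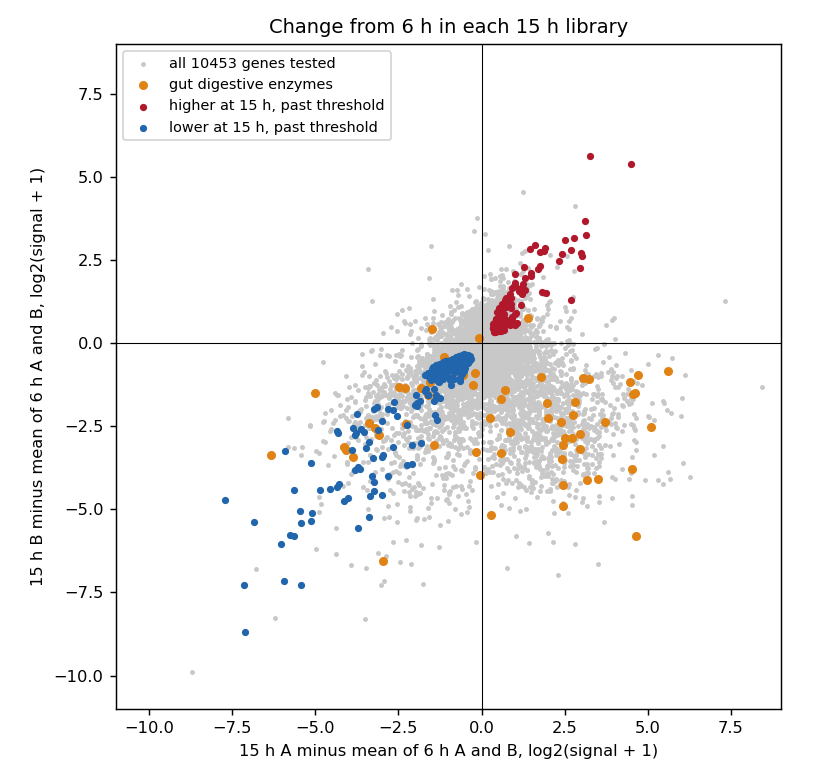
Change of each gene from the mean of the 6 h libraries in 15 h A (horizontal) and in 15 h B (vertical), on the log2(signal + 1) scale, for 10453 genes (grey), with genes past the threshold in red (138 higher) and blue (303 lower) and gut digestive enzymes in orange. Called genes lie at the lower left and upper right, while many gut enzymes lie to the right and below.

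Genes that pattern the notum and hinge were among those that rose. Doc2 (FBgn0035956, 3L 9012686 to 9019246, minus strand), a Dorsocross T-box transcription factor, had signals of 31.7 and 50.7 in 6 h A and B and of 221 and 260 in 15 h A and B. Every 15 h value was over 4 times every 6 h value, and the log2 change was 2.55 (SE 0.23, adjusted p 0.0194). Its paralog Doc1 (FBgn0028789, 3L 9041375 to 9045042, plus strand), with 22.1 kb between the genes, went from 116 and 180 to 357 and 437 (log2 1.44, SE 0.22, adjusted p 0.0267). The remaining paralog, Doc3, lay 5.4 kb from Doc2 and had 133 and 151 at 6 h and 222 and 348 at 15 h, without overlap, but missed the threshold (log2 0.97, adjusted p 0.0720).

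ara, an Iroquois homeobox gene of the notum, had 488 and 502 at 6 h and 764 and 1120 at 15 h (log2 0.90, adjusted p 0.0398). Its neighbour caup, 13.6 kb away, had 705 and 901 and then 997 and 1597, which did not pass (log2 0.66, adjusted p 0.137). grn, which encodes a GATA factor, went from 958 and 974 to 2042 and 1480 (log2 0.85, adjusted p 0.0382), and was the one of these whose higher 15 h library was A. Of the 18 notum and hinge genes tested, these 4 rose and none fell, where 1.32% of all genes rose and 2.9% fell. In both 15 h libraries 12 lay above both 6 h libraries, against 21.9% of all genes. The median log2 change was 0.63, against 0.048 over all genes. In the fit that drops 15 h A, 15 of the 18 passed as higher, with a median of 0.87, and in the fit that drops 15 h B 5 did, with 0.29. The GATA factor gene pnr and the homeobox gene hth did not pass, with log2 changes of 0.25 and 0.26 and libraries that overlapped between the times.

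Along the anteroposterior axis, brk (FBgn0024250, X 7307939 to 7311132, plus strand), which encodes Brinker, the repressor of Dpp target genes, went from 470 and 723 at 6 h to 1374 and 1999 at 15 h. The log2 change was 1.51 (SE 0.26, adjusted p 0.0334), and the lowest 15 h value was well above the highest 6 h value. kni, a zinc finger gene of the second wing vein that also stands in the list of tracheal genes, went from 135 and 131 to 205 and 221 (log2 0.68, adjusted p 0.0463). These were the 2 of 17 genes of the list that rose, against 1.32% of all genes, and none fell. Without overlap above 6 h were 10, against 21.9% of all genes, and the median was 0.45. The fit that drops 15 h A passed 14 of the 17 as higher, and the fit that drops 15 h B passed 4 as higher and 3 as lower. The ligand gene dpp had 1948 and 2046 at 6 h and 1426 and 2542 at 15 h, on either side of the 6 h values (log2 -0.07, adjusted p 0.907). The Hedgehog ligand gene hh, with 576 and 591 and then 605 and 931, and the posterior selector gene en, with 649 and 591 and then 697 and 1062, did not pass either (adjusted p 0.294 and 0.2).

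Among dorsoventral and pouch genes, Dll (FBgn0000157, 2R 24814822 to 24835667, plus strand), the Distal-less homeobox gene of the wing margin, had 154 and 222 at 6 h and 457 and 718 at 15 h. All 4 differences were over 2-fold, with a log2 change of 1.63 (SE 0.25, adjusted p 0.0267). nub (FBgn0085424, 2L 12587625 to 12628135, plus strand), the POU factor gene that marks the pouch and hinge, went from 2916 and 3040 to 4907 and 6290 (log2 0.90, SE 0.12, adjusted p 0.0215). Its paralog pdm2, 29.0 kb away, went from 235 and 208 to 488 and 658 (log2 1.35, SE 0.18, adjusted p 0.0215). Dll and nub were the 2 of 14 listed genes that rose, against 1.32% of all genes. Above 6 h without overlap lay 4, near the share of 21.9% over all genes. The median of 0.12 was close to that of all genes.

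The wing selector gene vg had 1342 and 1365 at 6 h, 1340 in 15 h A and 2490 in 15 h B (log2 0.43, adjusted p 0.358). The dorsal selector gene ap had 7113 and 7021, then 5552 and 9331 (log2 0.03, adjusted p 0.960), and the ligand gene wg 1623 and 1573, then 1157 and 1570 (log2 -0.25, adjusted p 0.336). In each of them 15 h A was the lowest of the 4 libraries. With 15 h A dropped, 10 of the 14 passed as higher and the median was 0.41. With 15 h B dropped, 2 passed as higher and 3 as lower and the median was -0.03.

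**Figure D3:**
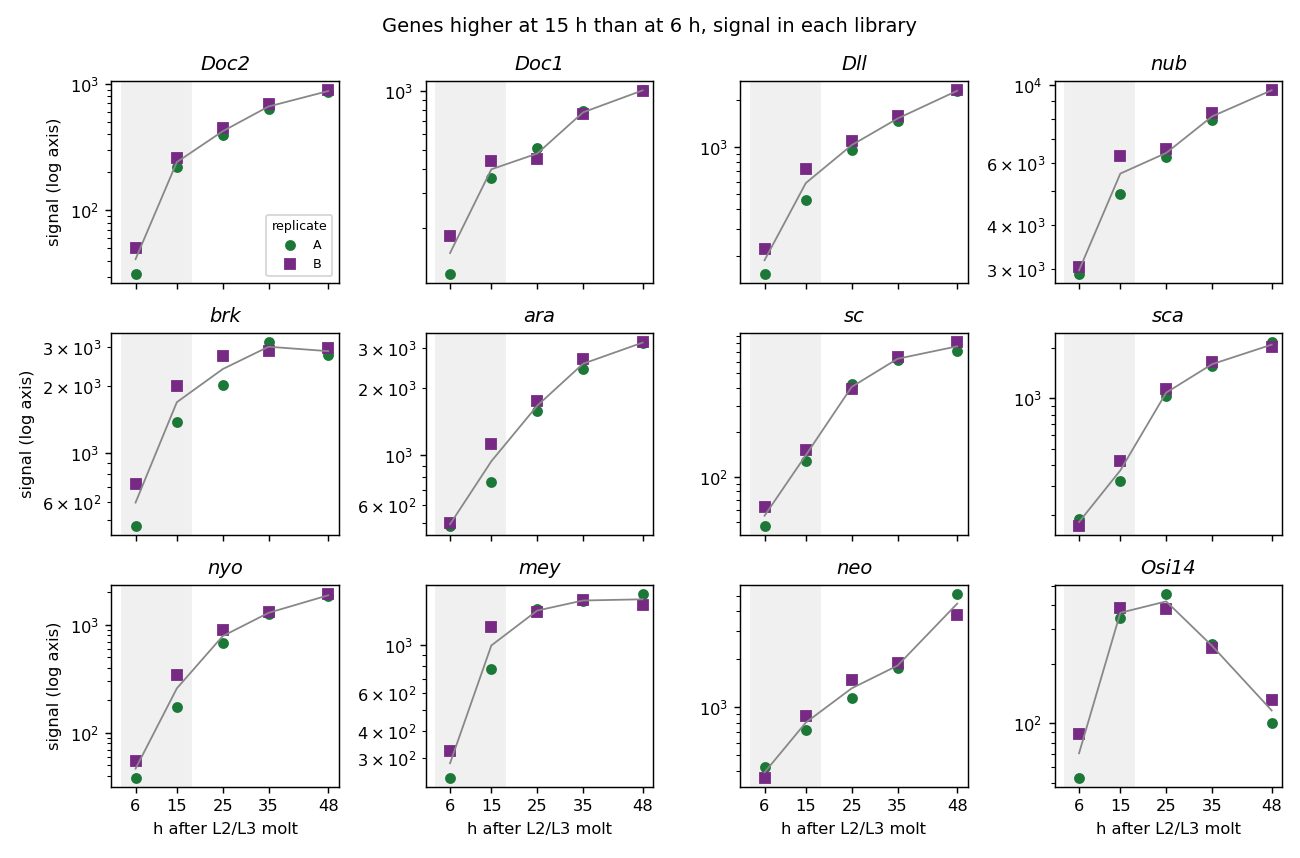
Signal (vertical log axis) of 12 genes that were higher at 15 h than at 6 h, in each library against hours after the L2/L3 molt; circles are replicate A, squares replicate B, the grey line joins the means of n = 2, and the shaded band holds the 2 times compared. In each panel both 15 h points lie above both 6 h points; Osi14 falls again after 25 h, to 101 and 132 at 48 h.

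Of 13 proneural and sensory organ genes tested, 3 rose, against 1.32% of all genes. sc (FBgn0004170, X 396060 to 397497, plus strand), the bHLH gene scute, had 47.1 and 62.7 at 6 h and 128 and 153 at 15 h (log2 1.35, SE 0.19, adjusted p 0.0239). Its neighbour achaete, ac, 25.1 kb away, went from 46.2 and 34.7 to 82.2 and 133 (log2 1.36, SE 0.27, adjusted p 0.0414), on 64 and 124 reads at 15 h. sca, the gene of the secreted protein Scabrous of proneural clusters, went from 191 and 173 to 320 and 422 (log2 1.01, SE 0.15, adjusted p 0.0267). In all of them the times did not overlap.

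None of the 13 fell, 5 lay above 6 h without overlap (21.9% over all genes) and 1 below, and the median was 0.29. The zinc finger gene sens, which marks sensory organ precursors, had 8.56 and 8.01 at 6 h and 10.3 and 12.9 at 15 h (log2 0.43, adjusted p 0.407), and 147 and 177 at 25 h. ato, the proneural gene of chordotonal organs, had between 3.85 and 8.598 in the 4 libraries. Their partner gene da had 2457 and 2322, then 2655 and 3200, and did not pass (log2 0.29, adjusted p 0.151). Notch target genes of the E(spl) complex, which restrain proneural activity, gave none of 12 past the threshold in limma, 1 had an unadjusted p under 0.05 in each direction, and DESeq2 called 1 as higher. The 15 h libraries gave opposite medians, with 7 higher and 2 lower (0.53) when 15 h A was dropped and 2 higher and 5 lower (-0.57) when 15 h B was dropped.

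Of the 12 zona pellucida genes tested, 3 rose, against 1.32% of all genes. Zona pellucida proteins are transmembrane proteins that anchor the apical matrix of epithelia. mey (FBgn0039851, 3R 31499235 to 31506992, plus strand) had 242 and 323 at 6 h and 778 and 1216 at 15 h, a log2 change of 1.79 (SE 0.22, adjusted p 0.01995). nyo (FBgn0039852), its neighbour at 36.0 kb, went from 38.5 and 54.7 to 175 and 342 (log2 2.39, SE 0.33, adjusted p 0.0219). neo went from 419 and 362 to 717 and 885 (log2 1.03, SE 0.20, adjusted p 0.0398).

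None of the 12 fell, and 8 lay above 6 h without overlap, against 21.9% of all genes. The median was 0.36, against 0.048 over all genes. dpy, the gene of the giant matrix protein Dumpy, had 24111 and 32701 at 6 h and 27630 and 29922 at 15 h, between the 6 h values. nompA was the one below 6 h without overlap, at 33.4 and 42.7 and then 8.99 and 7.52 (log2 -2.07, adjusted p 0.0916).

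Osi14 (FBgn0040279, 3R 6299128 to 6300738, plus strand), of the insect Osiris family of membrane proteins, had 53.1 and 88.1 at 6 h and 344 and 384 at 15 h (log2 2.39, SE 0.28, adjusted p 0.0194). It was the 1 of 12 Osiris genes to pass, where 4.22% of all genes passed. Of the 12, 6 lay below 6 h without overlap and 2 above, where all genes had 22.4% and 21.9%. Osi19 was among those below, at 59.9 and 58.7 and then 7.71 and 16.1 (adjusted p 0.142).

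Other single genes rose by as much. tey (FBgn0036899) went from 80.5 and 123 to 339 and 504 (log2 2.04, adjusted p 0.0199). bnb, bangles and beads, went from 1246 and 2650 to 5839 and 8507 (log2 1.95, adjusted p 0.0371). Neither gene had a 15 h library near its 6 h values. The small heat shock gene Hsp27 went from 611 and 793 to 1914 and 4944 (log2 2.14, adjusted p 0.0367), with 15 h B the higher by more than 2-fold. It was the 1 of 15 heat shock genes to rise, where 1.32% of all genes rose. Hsp23 and Hsp26 had 611 and 271 in 15 h A and 6088 and 3325 in 15 h B and did not pass (adjusted p 0.126 and 0.402).

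Jra, the gene of the Jun transcription factor, went from 1050 and 987 to 1621 and 1572 (log2 0.65, SE 0.10, adjusted p 0.0274), and at 25 h it was back at 1016 and 1180. It was 1 of 18 JNK and damage genes to rise, where 1.32% of all genes rose. The JNK phosphatase gene puc lay just outside, with 832 and 1014 and then 1825 and 1450 (log2 0.82, adjusted p 0.0506). GstE11, a glutathione transferase gene, went from 1022 and 1153 to 1769 and 1799 (log2 0.72, adjusted p 0.0197). The GTPase gene Ras85D (log2 0.40, adjusted p 0.0366) and the Wnt co-receptor gene arr (log2 0.79, adjusted p 0.0489) rose. They were 1 of 12 EGF receptor pathway genes and 1 of 12 Wnt genes, against 1.32% of all genes. Of the 12 Wnt receptor and effector genes, 7 lay above 6 h without overlap, against 21.9% of all genes, and the median was 0.38. It was 0.65 with 15 h A dropped, when 11 passed as higher, and 0.09 with 15 h B dropped, when 3 did. The EGF receptor genes had 6 above and 2 below, where all genes had 21.9% and 22.4%, with a median of 0.20.

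Ribosome biogenesis made up the largest listed group that fell. These genes encode nucleolar enzymes, RNA polymerase I subunits and assembly factors that turn ribosomal RNA and proteins into ribosomal subunits. Of 29 genes tested, 22 fell and none rose, where 2.9% of all genes fell. Below 6 h without overlap lay 25, against 22.4% of all genes. The median log2 change was -1.03, against 0.048 over all genes. They took 0.815% and 0.742% of all reads in the 6 h libraries, against 0.265% in 15 h A, 0.531% in 15 h B and 0.363% to 0.570% from 25 h on. Both 15 h libraries were below both 6 h libraries, 15 h A the further. With 15 h A dropped, 25 of the 29 passed as lower and the median was -0.71; with 15 h B dropped, 26 did and it was -1.27. Under quantile normalization 1 passed and the median was -1.09, and in edgeR none passed and it was -0.95.

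nclb (FBgn0263510, 2R 10875748 to 10877296, plus strand), a factor of ribosomal DNA chromatin and ribosome assembly, had 6141 and 6137 at 6 h and 2147 and 2950 at 15 h (log2 -1.29, SE 0.14, adjusted p 0.0194). mod (FBgn0002780, 3R 32052060 to 32054974, plus strand), which encodes the nucleolin-like protein Modulo, went from 37293 and 36926 to 13105 and 18265 (log2 -1.26, SE 0.15, adjusted p 0.0194). For both genes every 15 h value was at least 2-fold under every 6 h value.

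Nop56 (FBgn0038964), of the small nucleolar RNPs that guide RNA methylation, went from 11744 and 11953 to 4105 and 6037 (log2 -1.25, SE 0.16, adjusted p 0.0217). Nmd3 (FBgn0023542), the export adaptor of the large subunit, went from 3901 and 3782 to 1514 and 1933 (log2 -1.17, SE 0.12, adjusted p 0.0194). The methyltransferase gene Fib lay just outside the threshold, with 6813 and 8267 and then 2669 and 4578 (log2 -1.10, adjusted p 0.05004). At 25, 35 and 48 h Nop56 stayed between 5225 and 6867 and nclb between 2389 and 2633, far under their 6 h values.

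Some members of that list do other work. bor, one of the 22, encodes a mitochondrial ATPase and Rrp1 a DNA repair nuclease, while l(2)34Fc, whose signal was at most 13.3, is not known here as a ribosome factor. Rrp1 was above at 15 h, with 4131 and 4121 and then 4227 and 7586, and did not pass (adjusted p 0.303). Non1, Nop17l, RpI135 and Ns2 did not pass either, the last 2 at adjusted p 0.0540 and 0.0524.

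**Figure D4:**
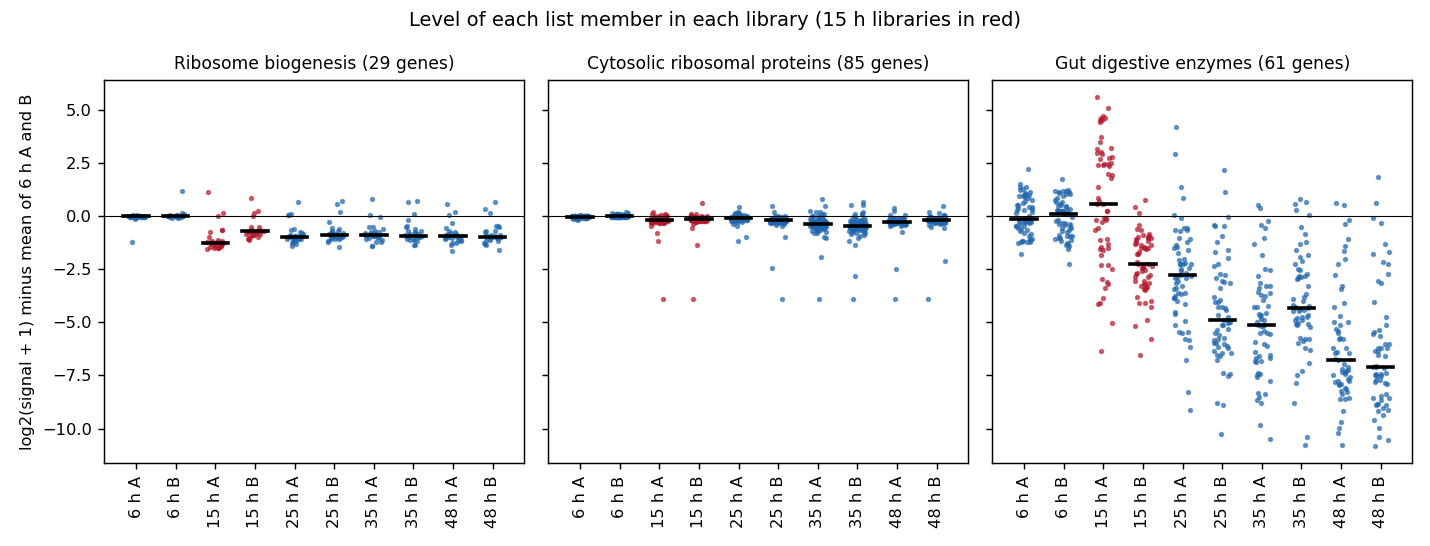
log2(signal + 1) of each member minus its mean in 6 h A and B, in the 10 libraries, for ribosome biogenesis (29 genes), cytosolic ribosomal proteins (85) and gut digestive enzymes (61); points are genes, bars medians, 15 h in red. Ribosome biogenesis has medians of -1.27 in 15 h A and -0.71 in 15 h B, while the gut list stands above 6 h in 15 h A and below it in 15 h B.

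The ribosomal protein genes did not pass. Of 85 cytosolic ribosomal protein genes none passed in limma, 16 had an unadjusted p under 0.05, all lower, and DESeq2 called 9 lower. Below 6 h without overlap lay 71, against 22.4% of all genes, with a median of -0.14. The lowest adjusted p, 0.0901, was that of RpS20, with 36941 and 37177 at 6 h and 30014 and 30785 at 15 h. Of 72 mitochondrial ribosomal protein genes none passed in limma (1 unadjusted, 0 in DESeq2), and all 72 were higher in 15 h A than in 15 h B. Of them, 50 passed as lower with 15 h A dropped (median -0.42) and 12 as higher with 15 h B dropped (median 0.14).

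Aminoacyl-tRNA synthetases, which load amino acids onto tRNAs, fell in part. Of 31 tested, 8 fell and none rose, where 2.9% of all genes fell. Below 6 h without overlap lay 18, against 22.4% of all genes, and the median was -0.23. It was -0.27 in the fit that drops 15 h A and -0.19 in the fit that drops 15 h B. LeuRS had 8509 and 8729 at 6 h and 4735 and 5457 at 15 h (log2 -0.76, SE 0.09, adjusted p 0.0194). HisRS (log2 -0.71, adjusted p 0.0239), IleRS (log2 -0.58, adjusted p 0.0239) and ValRS (log2 -0.58, adjusted p 0.0218) fell by similar amounts. None of the members named for mitochondria with the suffix -m passed, and their log2 changes lay between -0.23 for LeuRS-m and 0.24 for AsnRS-m.

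Nucleotide synthesis genes were listed only after r-l, ras and Nmdmc had been seen to pass, so the list's count is a description. Of 20 genes, 7 fell, against 2.9% of all genes, 13 lay below 6 h without overlap, against 22.4%, and the median was -0.68. r-l (FBgn0003257, 3R 21070557 to 21073319, minus strand), which encodes the last enzymes of UMP synthesis, had 4369 and 4673 at 6 h and 1744 and 2151 at 15 h (log2 -1.22, SE 0.11, adjusted p 0.0194). ras, the raspberry gene of IMP dehydrogenase, went from 8082 and 7824 to 3296 and 4355 (log2 -1.07, adjusted p 0.01995), and Nmdmc, of the mitochondrial folate cycle, from 3058 and 2672 to 1130 and 1531 (log2 -1.12, adjusted p 0.0239). Paics, of purine synthesis, went from 6922 and 6416 to 3285 and 4427 (log2 -0.81, adjusted p 0.0433). Paics was at 9023 and 7276 at 25 h, above 6 h in both libraries, whereas r-l stayed between 1895 and 2105 from 25 h on. Ts, Dhod and Adk2, of the same routes, did not pass, with log2 changes of 0.01 to 0.18. SpdS, the spermidine synthase gene of polyamine synthesis, went from 2125 and 2502 to 591 and 780 (log2 -1.76, SE 0.18, adjusted p 0.0194), with no overlap.

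Cell cycle genes did not pass. None of 29 G1 to S phase genes and none of 31 G2 to M phase genes passed in limma, 0 had an unadjusted p under 0.05, and DESeq2 called 0. All 31 G2 to M genes were lower in 15 h A than in 15 h B, and their median log2 change was 0.26. Dropping 15 h A gave 29 of them as higher with a median of 0.62, and dropping 15 h B gave 4 as lower with a median of -0.10. SMC2, a condensin gene with the lowest adjusted p of the list (0.253), had 2816 and 2696 at 6 h, 2962 in 15 h A and 5521 in 15 h B. For the G1 to S genes the median was 0.02 and changed sign under quantile normalization, to -0.05; 18 passed as higher with 15 h A dropped, and 15 as lower with 15 h B dropped. Of 16 Hippo pathway genes, which restrain growth, none passed (5 unadjusted as higher, 2 in DESeq2), and the median was 0.34. Dropping 15 h A passed 12 of them as higher with a median of 0.42, and dropping 15 h B passed 3 with a median of 0.01.

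Proteasome and septate junction genes stood above 6 h without passing. Of 31 proteasome genes, 26 lay above both 6 h libraries in both 15 h libraries, against 21.9% of all genes, with a median of 0.22. None passed in limma or DESeq2 and 5 had an unadjusted p under 0.05. The median was 0.07 under quantile normalization and also with 15 h A dropped, while 28 passed with 15 h B dropped. All 31 genes were higher in 15 h A than in 15 h B. Of 16 septate junction genes, which seal the epithelium, 11 lay above 6 h, against 21.9% of all genes. The median was 0.33, and it was 0.50 with 15 h A dropped and 0.12 with 15 h B dropped. None of the 16 passed the threshold in limma (4 unadjusted, 1 in DESeq2). Gli, the gene of Gliotactin, had the lowest adjusted p of these, 0.0955, with 3778 and 3156 at 6 h and 5303 and 4415 at 15 h.

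**Figure D5:**
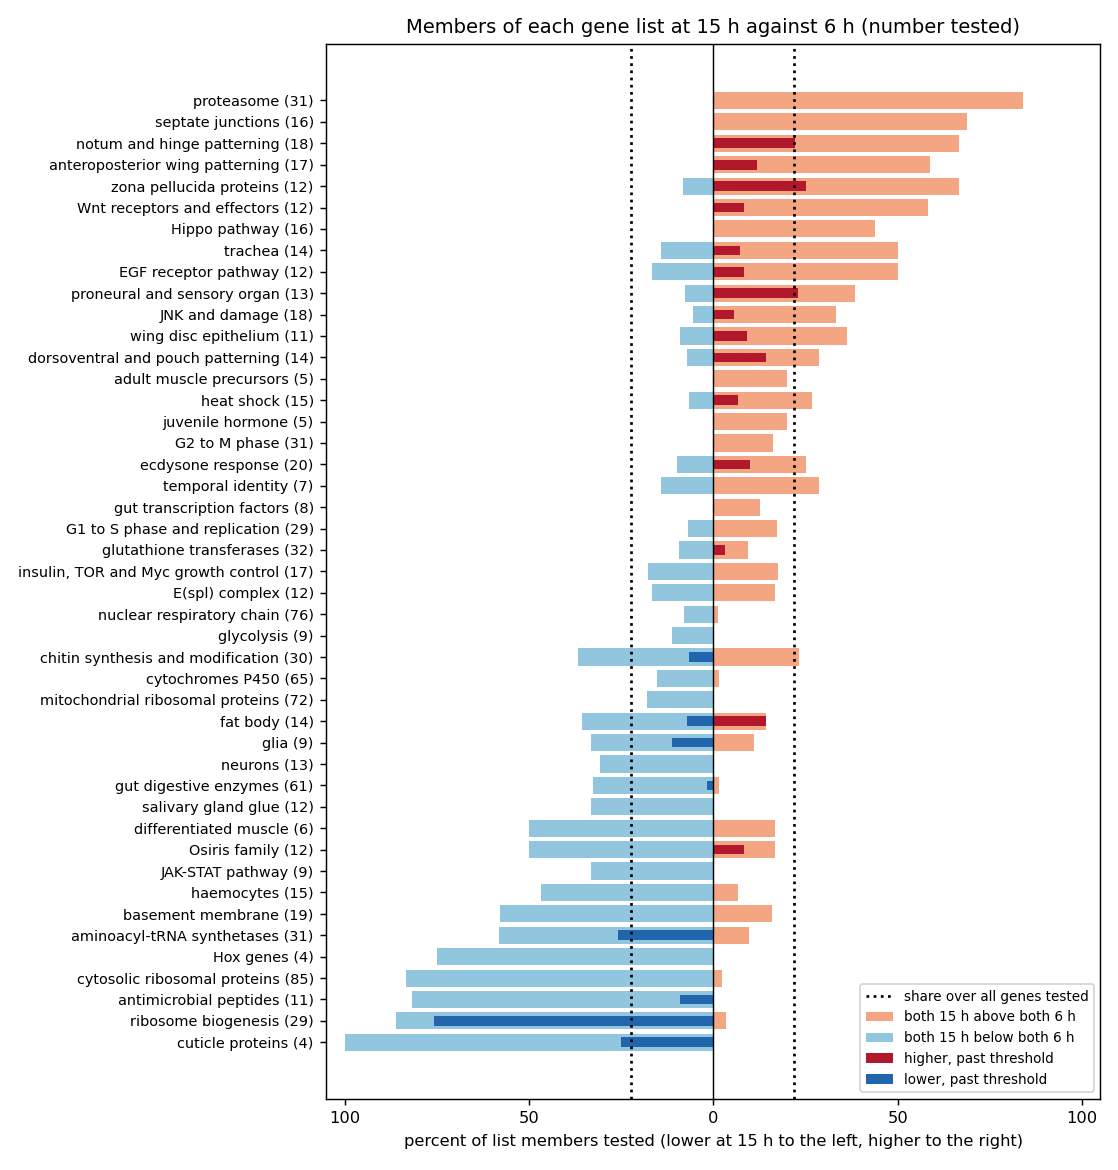
Percent of the tested members of each gene list drawn (number in brackets) for which both 15 h libraries lay above (right, light red) or below (left, light blue) both 6 h libraries, with members past the threshold in dark colour. The replication-dependent histone list (2 genes tested) and the nucleotide synthesis list, added later, are not drawn. Dotted lines give the same share over all 10453 genes, 21.9% and 22.4%; ribosome biogenesis has 22 of 29 genes past the threshold as lower, and proteasome 26 of 31 above with none past it.

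Of the 20 ecdysone response genes tested, 2 rose, against 1.32% of all genes. Eip74EF (FBgn0000567, 3L 17558672 to 17619325, minus strand), the early ETS-domain gene of the hormone cascade, had 718 and 853 at 6 h and 1277 and 1931 at 15 h (log2 1.004, SE 0.20, adjusted p 0.0460). Oatp74D, which encodes the importer of ecdysone into cells, went from 2343 and 2641 to 3784 and 4958 (log2 0.80, SE 0.16, adjusted p 0.0476). Neither overlapped between times. None of the 20 tested fell, and 5 lay above 6 h without overlap and 2 below, against 21.9% and 22.4% over all genes, the first near that share and the second under it. The median was 0.07.

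The receptor gene EcR went from 3095 and 3284 to 4359 and 6198, without passing (log2 0.70, adjusted p 0.0606). Eip75B, with 1646 and 2078 and then 1703 and 1930, and Hr39 showed overlapping values, and ImpE1, ImpE3 and Eip78C had 53.4 to 101 in all 4 libraries. Cyp18a1, which breaks ecdysone down, had 734 and 901 at 6 h and 325 and 198 at 15 h (log2 -1.68, adjusted p 0.203).

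No temporal identity factor passed in limma. Of the 7 tested, 2 had an unadjusted p under 0.05 as higher and 1 as lower, as in DESeq2. br, of the Broad factors of late larvae, had 3241 and 4292 at 6 h and 5529 and 8250 at 15 h, without overlap (log2 0.86, adjusted p 0.0725). Syp, an RNA-binding factor of late neural progenitors, had 7193 and 10198 and then 11857 and 14144 (log2 0.60, adjusted p 0.0949). mamo, a zinc finger gene, had 1961 and 2565 and then 1494 and 1370 (log2 -0.65, adjusted p 0.0866).

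chinmo, the early factor, had 9825 and 9509 at 6 h, 7801 in 15 h A and 11967 in 15 h B, on either side of 6 h (log2 change -0.00056, adjusted p 1). With 15 h A dropped its change was 0.31 and passed (adjusted p 0.0346), and with 15 h B dropped it was -0.31. Imp, the early RNA-binding factor, had 4694 and 6400 and then 3832 and 5357 (log2 -0.27, adjusted p 0.445), and ab 4259 and 4880 and then 4241 and 7107 (log2 0.27, adjusted p 0.515, and log2 -0.10 with 15 h B dropped). Eip93F had 3.22 to 14.7 in the 4 libraries (adjusted p 0.683). Kr-h1, the juvenile hormone response gene, had 432 and 406 and then 551 and 867 (log2 0.72, adjusted p 0.127).

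Single cuticle and chitin genes fell. Among them, the larval cuticle protein gene Lcp65Ag2 (FBgn0020638), on 3L from 6134697 to 6135274, had 31572 and 22781 at 6 h and 2842 and 6806 at 15 h (log2 -2.61, SE 0.52, adjusted p 0.0444). The 25 h libraries had 698 and 838, those of 35 h 40.3 and 18.1, and those of 48 h 7.35 and 4.17. It was the 1 of 4 cuticle genes past the threshold, where 2.9% of all genes fell. All 4 lay below 6 h, against 22.4% of all genes. A near-identical tandem copy of Lcp65Ag2 exists, so reads could be split between copies. Cda9, a chitin deacetylase gene, went from 263 and 117 to 6.42 and 7.52 (log2 -4.47, adjusted p 0.0293), and Idgf1, a chitinase-like imaginal disc growth factor gene, from 1023 and 1782 to 190 and 340 (log2 -2.40, adjusted p 0.0388). These were the 2 of 30 chitin genes that fell, where 2.9% of all genes fell. Of the 30, 11 lay below 6 h and 7 above, where all genes had 22.4% and 21.9%. The chitin synthase gene kkv had 5815 and 5595 and then 5146 and 7509, around its 6 h values.

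Immune peptide genes had their higher signals at 6 h, when these peptide genes took 0.0112% and 0.00449% of reads, against 0.000257% and 0.000626% at 15 h. BomS1, a Toll-induced Bomanin peptide gene, had 992 in 6 h A and 69.4 in 6 h B, and 1 and 5 reads in the 15 h libraries (adjusted p 0.0499). It was the 1 of 11 listed antimicrobial peptide genes past the threshold, where 2.9% of all genes fell. Outside that list, BomS4, also a Bomanin gene, IM14 and IBIN fell too. Below 6 h in both 15 h libraries lay 9, against 22.4% of all genes. The Drosomycin gene Drs had 966 and 647 at 6 h and 12.8 and 89.2 at 15 h (log2 -4.49, adjusted p 0.116). The 6 h replicates differed widely in several of these, AttB having 395 and 49.4.

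Genes typical of other tissues also passed. The 15 fat body genes took 1.16% and 1.92% of reads at 6 h and 0.800% and 1.82% at 15 h, and 15.9% and 8.84% at 25 h, and none of the 15 was without reads in 15 h B. The part of fat body in the results of this paragraph was not tested. Lsp2 (FBgn0002565, 3L 12129393 to 12131869, plus strand), a larval storage protein gene, had 27.4 and 93.4 at 6 h and 1164 and 2178 at 15 h, with no overlap (log2 4.94, SE 0.77, adjusted p 0.0274), and 133508 and 47392 at 25 h. Fbp2 went from 188 and 319 to 2359 and 12102 (log2 4.44, SE 0.80, adjusted p 0.0350). The storage protein gene Lsp1beta overlapped between times, with 48450 and 106219 and then 42167 and 168812.

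Apoltp, the gene of the lipid transfer particle that the fat body secretes, went the other way, from 16504 and 30157 to 1926 and 3510 (log2 -3.10, SE 0.60, adjusted p 0.0398). Of 14 fat body genes tested, 2 rose and 1 fell, where 1.32% of all genes rose and 2.9% fell. The median log2 change of the 14, -0.19, had the other sign after quantile normalization (0.14), in edgeR (0.47) and in DESeq2 (0.40). Apoltp was at 14665 and 4268 at 25 h, where the fat body list was at its highest. Idgf1, at 786 and 387, and Kaz1-ORFB, at 359 and 211, were also above 15 h at 25 h; Kaz1-ORFB had 389 and 630 at 6 h and 77.1 and 121 at 15 h (log2 -2.34, adjusted p 0.0286). Each of these 3 was higher in 6 h B than in 6 h A and higher in 25 h A than in 25 h B, as was the fat body list. Such an order over 2 pairs of libraries is easily shared, and the part of fat body in these results was not tested.

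Eaat1, a glutamate transporter gene known from glia, fell from 635 and 729 to 86.0 and 65.6 (log2 -3.16, SE 0.53, adjusted p 0.0293) and had 702 and 306 at 25 h. The 10 glial genes of the list took 0.0550% and 0.0451% of reads at 6 h and 0.0571% and 0.0551% at 15 h, and repo, which defines glia, had 91.6 and 60.1 and then 73.2 and 27.9. Eaat1 was the 1 of 9 glial genes tested that passed, where 4.22% of all genes passed. DIP-epsilon, an immunoglobulin-domain gene of the DIP family, fell from 205 and 336 to 24.4 and 32.2 (log2 -3.18, SE 0.42, adjusted p 0.0217), while the 13 neuronal genes took 0.0219% and 0.0118% at 6 h and 0.0114% and 0.0108% at 15 h, none past the threshold in limma (3 unadjusted, 1 in DESeq2, all lower). The part of glia and neurons in these results was not tested.

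No haemocyte or basement membrane gene passed in limma. The 15 haemocyte genes took 0.498% and 0.676% of reads at 6 h and 0.287% and 0.424% at 15 h. Of them, 7 lay below 6 h without overlap and 1 above, where all genes had 22.4% and 21.9% (1 higher and 3 lower unadjusted, 3 lower in DESeq2). Of 19 basement membrane genes 11 lay below 6 h and 3 above, where all genes had 22.4% and 21.9%, with a median of -0.58. In limma 1 had an unadjusted p under 0.05 as higher and 8 as lower, and DESeq2 called 6 lower. vkg, a collagen IV gene, had 56390 and 94851 and then 17219 and 23440 (log2 -1.86, adjusted p 0.0520). srp, the GATA factor gene of blood cells and fat body, had 922 and 1290 and then 358 and 572 (log2 -1.27, adjusted p 0.0963).

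The remaining growth, signalling and tissue lists gave few differences. Of 17 insulin, TOR and Myc genes none passed in limma (2 higher and 3 lower unadjusted, 2 and 1 in DESeq2), and the kinase gene Pi3K92E came nearest, with 2189 and 2094 and then 2552 and 2928 (adjusted p 0.0703). Of 9 JAK-STAT genes none passed in limma (1 lower unadjusted, 0 in DESeq2); upd1, which encodes a ligand of the pathway, had 380 and 388 at 6 h and 143 and 316 at 15 h (adjusted p 0.219). Of 9 glycolysis genes none passed in limma (1 lower unadjusted and 1 in DESeq2), that gene being Hex-C, the hexokinase known from fat body, with 1090 and 1747 and then 171 and 454 (adjusted p 0.123).

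Of 14 tracheal genes kni alone rose, where 1.32% of all genes rose. The trachea list took 0.199% and 0.202% of reads at 6 h and 0.160% and 0.279% at 15 h. dysf, a bHLH-PAS gene of tracheal fusion, had 68.5 and 54.7 and then 175 and 110, without overlap (log2 1.16, adjusted p 0.0604). Among 4 Hox genes tested none passed in limma (2 lower unadjusted, 0 in DESeq2); Antp, the Hox gene of the mid thorax, had 1259 and 1369 and then 841 and 1119 (log2 -0.44, adjusted p 0.172). Among 12 salivary glue genes none passed in limma (1 lower unadjusted, 0 in DESeq2), and 8 of 18 listed were without reads at 6 h and 10 at 15 h.

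Several metabolic genes completed the named falls. Hpd, of tyrosine breakdown, went from 4107 and 3055 to 1358 and 1209 (log2 -1.47, adjusted p 0.0421) and on to 390 and 246 at 25 h and 95.6 and 98.9 at 48 h. LManII, a lysosomal mannosidase gene, went from 3454 and 5336 to 1418 and 1468 (log2 -1.57, adjusted p 0.0276). It was the 1 of 61 digestive enzyme genes past the threshold, where 4.22% of all genes passed. Of the 61, 20 lay below 6 h without overlap and 1 above, where all genes had 22.4% and 21.9%. Of the 61, 43 were higher in 15 h A than in 15 h B. loh, which encodes a matrix protein of the heart, went from 527 and 552 to 225 and 170 (log2 -1.46, adjusted p 0.0276). Had2 (log2 -1.86, adjusted p 0.0457) and hll (log2 -2.90, adjusted p 0.0267) fell too, without overlap.

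Of 4435 genes without a given name, 36 rose (0.812%, against 1.32% over all genes) and 143 fell (3.22%, against 2.9%). CG42500 (FBgn0260226, 3R 14152211 to 14152650, minus strand) went from 19.7 and 33.4 to 209 and 175 (log2 2.85, SE 0.34, adjusted p 0.0197) and on to 1193 and 1554 at 25 h. CG12268 went from 55.7 and 88.1 to 572 and 434 (log2 2.81, adjusted p 0.0194), and CG12164 from 21.4 and 41.4 to 199 and 213 (log2 2.75, adjusted p 0.0199). CG12164 was back at 48.1 and 56.6 by 48 h, whereas CG12268 was at 997 and 1325.

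CG7203 (FBgn0031942, 2L 7752170 to 7753186, minus strand) had 113.9 and 114.8 at 6 h, and 1 read in each 15 h library (adjusted p 0.0194). CG7715 had 427 and 244 at 6 h and likewise 1 read in each 15 h library (adjusted p 0.0267). CG34268 went from 505 and 296 to 7.71 and 10.7 (log2 -5.26, SE 0.49, adjusted p 0.0194). From 25 h on CG7203 had at most 1.40 and CG34268 at most 25.8, far under their 6 h values. Exons of CG7203, as of Jra, sca, Hsp27, Lsp2, Fbp2, SpdS, Hpd, r-l, ras, Nmdmc, Nmd3 and HisRS, overlap those of at least 1 other annotated gene, whose reads could be counted with them where strand was ignored; how strand was handled is not given in the sources used here.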

How the data were processed

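RNA was extracted with the RNeasy Micro kit, per the labels' protocols. STAR 2.7.10a, featureCounts, dm6 and BDGP6 are named in the submitters' processing notes. Strand handling, gene filter and normalization tool are not given in the sources used here. The authors deposited 1 table of signal values, gene counts divided by a factor per library. Multiples of the value of 1 read gave whole reads within 0.001 for 100% of values, so reads were recovered. Coordinates come from Ensembl BDGP6.54, and 41 genes had no match there.

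log2(signal + 1) was tested by the moderated fit of limma 3.58.1 (R 4.3.3) with a trend on the mean level, 1 mean per time, all 10 libraries and a two-sided contrast of 15 h with 6 h; the pseudocount understates changes of low genes. The residual degrees of freedom were 5. Genes (2588) under the filter were left out. As alternatives, edgeR 4.0.16 and DESeq2 1.42.0 were run on the recovered reads. All other alternatives were limma fits on the deposited signal. In all, 18 alternatives were planned and 1 was added later. The test was also run on simulated counts with known changes. These counts had the same spread in every library and no gap between the 15 h libraries, so that run says nothing on how the gap affects the calls.

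The members, gene lists (47) and tests were chosen with earlier results of these data known, and 1 list was added after its values were seen. Named genes were the 12 higher and 12 lower with the largest smallest difference among named genes past the threshold, without overlap, with 15 h libraries within 2-fold and a mean of at least 100; up to 4 per list, or else that with the lowest adjusted p; all temporal factors; and 3 unnamed genes each way. Others are named as members of these lists and were chosen after their values were seen. No fold is given against 3 reads or fewer.

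The labels do not say what the letters A and B mark. The correlations between times of their deviations lay between -0.0585 and 0.161. They show no strong effect shared by a letter, and cannot show that the letters mark no batch. Intervals over libraries cover the spread of n = 2 only, and reads without molecular identifiers are not independent molecules.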

Additional observations from a re-analysis of the deposited data

How the results depend on the processing

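The counts of genes past the threshold were 138 higher and 303 lower. They were 145 and 402 with a pseudocount of 10, 113 and 329 without a filter, 9 and 14 after quantile normalization, 4 and 5 with a common median, 0 and 0 in edgeR, 666 and 715 in DESeq2, and 0 and 0 with the 4 libraries alone (1064 at an unadjusted p under 0.05). With array weights, added after the gap between the 15 h libraries was seen, they were 0 and 0 (limma, 806 unadjusted, lowest adjusted p 0.1). Both 15 h libraries got a weight of 0.127, because 2 libraries deviate equally from their shared mean. That fit could not weigh 15 h A apart from 15 h B. Leaving out single libraries gave 0 to 1975 higher and 0 to 1848 lower; the 0 counts (limma) came without any one of 6, 35 or 48 h, with 1521 to 2010 unadjusted, and the highest without a 15 h library. A library left alone at its time is assumed to vary like the other times. The replicate block (letter A or B) gave 72 and 203, though the labels do not say that a letter marks a batch.

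Of the 138 and 303 genes, 131 and 299 passed with a pseudocount of 10 and 138 and 284 in DESeq2, which gave no adjusted p for 17. Over the genes chosen by the naming rule and these settings, 890 values kept their side of the threshold, 46 newly passed and 662 no longer passed, and 1 changed sign with a pass in either fit: chinmo, near 0 with all libraries, at 0.308 without 15 h A and -0.309 without 15 h B. Without a pass in either fit, ab changed sign to -0.104 without 15 h B and Eip93F to 0.353 after quantile normalization, 0.082 without 6 h B and 0.026 without 15 h B, and chinmo to 0.059 in edgeR, 0.039 in DESeq2 and 0.023 without 6 h A. Beyond the fits that drop a 15 h library or other libraries, the cause was not tested. With 2 libraries a time, an exact permutation test of 1 gene could not go below p = 0.333.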

Other observations

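Beyond the comparison, the filter left 97 genes with a second-highest signal of 10 to under 11 just inside and 111 with 9 to under 10 just outside. It also kept 162 genes with a signal under 10 in all 4 libraries of 6 h and 15 h.

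Glutathione transferase and cytochrome P450 genes, which detoxify compounds in gut, fat body and Malpighian tubule, showed the gap between the 15 h libraries. Of 65 P450 genes tested, 60 were higher in 15 h A than in 15 h B, with a median log2 difference of 3.46, and of 32 glutathione transferase genes 28 were, with a median of 1.95. The P450 genes took 0.368% and 0.252% of reads at 6 h, 1.13% in 15 h A and 0.0646% in 15 h B. Nuclear genes of the respiratory chain went the same way in 72 of 76, with a median of 1.29. Gut transcription factor genes were higher in 15 h A for 6 of 8, GATAe having 1316 and 87.1, against 776 and 578 at 6 h, whereas GATAd had 1311 and 1527.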
